A study of Homo sapiens with 8 samples.

Results

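NF-κB is a family of dimeric transcription factors that is held in the cytoplasm by inhibitors of the IκB family and that is released into the nucleus after cytokine, Toll-like receptor or stress signals. In the nucleus it switches on inflammatory and survival genes together with genes for its own inhibitors, so that the response feeds back on itself. In ovarian cancer cells the pathway is known for driving cytokine secretion and resistance to cell death. The levels of 10 genes of this family and of its feedback loop were followed here: the subunits NFKB1, NFKB2, REL, RELA and RELB, the inhibitors NFKBIA, NFKBIB and NFKBIE, and the feedback genes TNFAIP3 and BIRC3. Every non-control probe whose RefSeq accession belonged to 1 of these genes was taken, which gave 11 probes for 9 of the 10 genes, out of 20503 genes with a named probe. NFKB2, which encodes the p100 precursor of the p52 subunit, was matched to no probe by accession and was not analysed here.

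The arrays compared MDAH and SKOV3 cells, both established epithelial ovarian cancer lines, with and without silencing of SFPQ, an RNA-binding protein and splicing factor studied for its part in the response to platinum drugs. Nothing in the labels of these samples names a platinum treatment. Each line gave 2 control arrays and 2 silenced arrays, 1 with sh-SFPQ#2 and 1 with sh-SFPQ#3, so that the 8 arrays formed 4 groups of 2 and each silenced group joined different shRNAs. The labels call both controls of a line control-shRNA cells, whereas the study's supplementary methods list a parental and a control-shRNA sample, without telling which number is which. Nothing in the labels says that the controls came from separate cultures, so the p-values measure only the spread between these samples. In the silenced groups that spread includes the difference between the shRNAs. In the controls it may be technical, or may include a difference between parental and control-shRNA cells. Signals are given as log2 values relative to the 75th percentile of each array, and tests were made with limma, with the adjusted p taken over all 15552 genes tested and 0.05 as the threshold.

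The 75th percentile of the raw signal lay between 244 and 496, lowest for MDAH sh-SFPQ#3, and between 47.7 and 57.0% of an array's probes rose well over their background. SFPQ itself fell in both lines, by 1.50 on the log2 scale in MDAH cells (adjusted p = 0.0328 from limma) and by 2.01 in SKOV3 cells (adjusted p = 0.0299). With each array left out in turn it kept its direction, and the adjusted p (0.0296 to 0.218 for MDAH, 0.0172 to 0.118 for SKOV3) passed in 3 of 8 such fits for each line. The epithelial identity of the lines was borne out by 6 of 8 epithelial markers that were well above background on all 8 arrays; MUC16 was so only in silenced SKOV3 cells and CDH1 was not so in SKOV3 controls. Of 5 leukocyte markers the T-cell gene CD3E was above background on 0 arrays, and PTPRC, CD14 and CD68 were above it on all 8, with PTPRC between -3.51 and -2.28. All 11 member probes were well above background on all 8 arrays.

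Several genes of the family are themselves κB targets in textbook accounts, so their promoters were read first. A promoter of 300 bases, 250 before and 50 after the start of transcription, was at hand for 8 of the 10 genes (RefSeq, GRCh38.p14), RELB and NFKBIE having none in the table used. On both strands the 10-base κB consensus was searched, which opens with GGG and closes with CC. At least 1 promoter of 7 of these 8 genes held a match, against 13.3% of 27305 genes in the table, and 20 of 38 genes of the NF-κB target list with a promoter did so. Neither of the 2 RELA promoters held these letters. The matches before the start are shown in capitals for the measured genes, 5′ to 3′ along the gene's own strand, because they show which of the genes described below bear a recognisable κB element close to the start. Overlapping matches on opposite strands, as in REL and NFKBIB, are drawn as 1 element.
REL, chr2:60881512-60881552, plus strand: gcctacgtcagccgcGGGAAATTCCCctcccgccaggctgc
NFKB1, chr4:102501295-102501334, plus strand: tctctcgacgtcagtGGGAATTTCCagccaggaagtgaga
NFKBIA, chr14:35404806-35404845, minus strand: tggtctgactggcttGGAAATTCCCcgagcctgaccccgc
NFKBIB, chr19:38899926-38899966, plus strand: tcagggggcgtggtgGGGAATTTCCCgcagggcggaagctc
TNFAIP3, chr6:137867177-137867228, plus strand: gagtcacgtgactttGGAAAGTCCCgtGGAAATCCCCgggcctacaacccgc
BIRC3, upstream element, chr11:102317270-102317309, plus strand: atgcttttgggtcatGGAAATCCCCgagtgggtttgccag
BIRC3, downstream element, chr11:102317334-102317373, plus strand: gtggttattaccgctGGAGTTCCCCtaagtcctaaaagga
The match of REL ended 36 bases before the start, that of NFKB1 39, that of NFKBIA 71 and that of NFKBIB 17, whereas the 2 BIRC3 elements ended 189 and 125 bases before it. A match of letters describes the sequence and does not show that a factor binds there.

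Without silencing, the lines differed widely in this gene family, and the difference was largest for an anti-apoptotic feedback gene. Of the 9 measured genes, 6 passed the threshold between MDAH and SKOV3 controls, beside 57.5% of all genes tested, a share that does not set the family apart. BIRC3, NFKBIE, NFKBIA, RELB and REL were higher in MDAH cells, 5 of 9 against 26.8% of all genes, and RELA was lower, 1 of 9 against 30.7%. The median difference of the 9 genes was 0.66 on the log2 scale, compared with -0.05 over all genes tested. The controls of the 2 lines did not overlap for 7 of 9 genes, compared with 85.2% of all genes, so such separation does not set the family apart. Since RNA of whole cultures was measured, a lower level per cell and fewer cells with the transcript cannot be told apart. The lines also took different rows of 1 slide, so that line and position cannot be told apart.

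**Figure D1:**
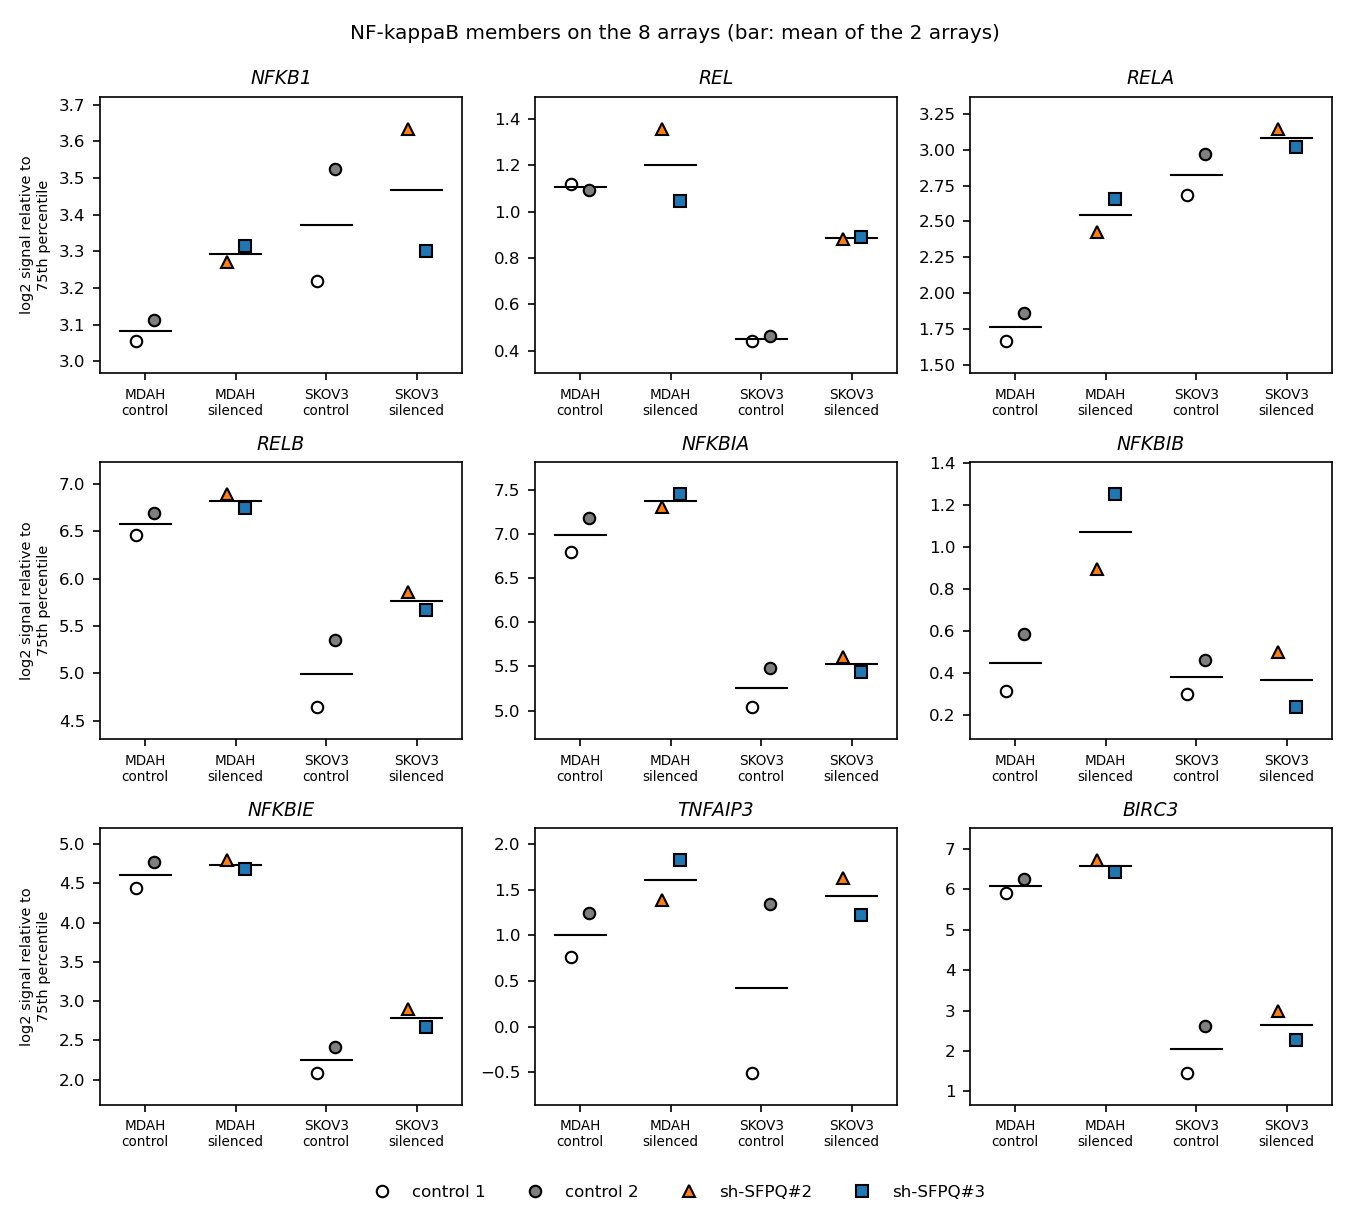
Log2 signal relative to the array's 75th percentile (vertical axes, one scale per gene) of the 9 measured NF-κB genes in the 4 groups; each point is 1 array, marked by control number or shRNA, and the bar is the mean of 2 arrays. BIRC3, NFKBIE, NFKBIA and RELB lie higher on all 4 MDAH arrays than on any SKOV3 array, and RELA lies lower. Of all genes tested 85.2% had no overlap between the controls of the lines, silenced arrays aside. The share over all 4 arrays of each line was not computed. Control 1 lies below control 2 in every panel except REL in MDAH cells.

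Among the subunits, RELA encodes p65, the main activating partner of the classical dimer. Its level was 1.66 and 1.86 in MDAH controls, 2.43 and 2.66 in MDAH cells with sh-SFPQ#2 and sh-SFPQ#3, 2.68 and 2.97 in SKOV3 controls, and 3.15 and 3.02 in silenced SKOV3 cells. The 4 groups did not overlap, and they ran from MDAH controls up through silenced MDAH cells and SKOV3 controls to silenced SKOV3 cells. The controls differed 2.09-fold, with MDAH lower (log2 difference -1.07, SE 0.18, adjusted p = 0.00222 from limma). A second RELA probe gave -0.98 for the same difference (adjusted p = 0.00326 over 20936 probes).

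RELB is the activating partner of p52 in the alternative pathway. It stood at 6.46 and 6.69 in MDAH controls and at 4.64 and 5.35 in SKOV3 controls, with no overlap, a 2.98-fold difference (log2 1.58, SE 0.25, adjusted p = 0.00179 from limma). With silencing the values were 6.89 and 6.75 in MDAH cells and 5.86 and 5.67 in SKOV3 cells, so that all MDAH arrays were above all SKOV3 arrays. REL encodes c-Rel, best known from lymphocytes. Its values of 1.12 and 1.09 in MDAH controls, 1.36 and 1.05 after silencing, 0.44 and 0.46 in SKOV3 controls and 0.88 and 0.89 after silencing spanned the smallest range of the genes that passed. The difference between controls was 0.66 (SE 0.16, adjusted p = 0.0102 from limma), and it missed the threshold without MDAH control 1 (adjusted p = 0.0544), SKOV3 control 1 (0.0565) or SKOV3 control 2 (0.0506).

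NFKB1 encodes p105, which is processed to the p50 subunit. It measured 3.05 and 3.11 in MDAH controls and 3.22 and 3.52 in SKOV3 controls, and after silencing 3.27 and 3.32 in MDAH and 3.64 and 3.30 in SKOV3 cells. The difference between the lines of -0.29 (95% interval -0.72 to 0.14) did not pass the threshold. Only the 2 MDAH groups stood clear of each other among neighbours in the order of its levels.

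Of the inhibitors, NFKBIA encodes IκBα, the classical inhibitor that is rebuilt after each round of activation. It was at 6.80 and 7.18 in MDAH controls, 7.30 and 7.45 in silenced MDAH cells, 5.04 and 5.48 in SKOV3 controls, and 5.61 and 5.44 in silenced SKOV3 cells. The MDAH controls were 3.32-fold higher (log2 1.73, SE 0.21, adjusted p = 0.00062 from limma). NFKBIE encodes IκBε, an inhibitor that acts with a delay, and stood at 4.44 and 4.78 against 2.09 and 2.42 in the controls of the lines, or 5.11-fold higher in MDAH cells (log2 2.35, SE 0.20, adjusted p = 0.000113 from limma). In silenced cells NFKBIE stood at 4.80 and 4.68 in MDAH and at 2.90 and 2.66 in SKOV3. Both genes thus kept MDAH above SKOV3 on every array.

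NFKBIB encodes IκBβ, and its 2 probes disagreed. The probe used was nearly level between controls, with 0.32 and 0.58 in MDAH and 0.30 and 0.46 in SKOV3, a difference of 0.07 (95% interval -0.40 to 0.54). The other probe gave 0.39 and 0.73 against -0.49 and -0.04, a difference of 0.83 that also missed the threshold (adjusted p = 0.0544 over 20936 probes). The probe used was assigned to a non-coding transcript of the gene, and the other probe to a coding one.

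BIRC3 encodes cIAP2, an inhibitor of apoptosis that ubiquitinates RIPK1 at the TNF receptor, and it showed the largest difference between the lines in the family. It stood at 5.90 and 6.25 in MDAH controls, 6.72 and 6.42 in silenced MDAH cells, 1.46 and 2.63 in SKOV3 controls, and 2.99 and 2.27 in silenced SKOV3 cells. The controls differed 16.4-fold (log2 4.03, SE 0.42, adjusted p = 0.000282 from limma), and the difference was 3.45 without SKOV3 control 1 and 4.62 without SKOV3 control 2. TNFAIP3 encodes A20, the ubiquitin-editing enzyme that ends the signal. Its values of 0.76 and 1.25 in MDAH controls overlapped those of -0.51 and 1.35 in SKOV3 controls. The difference of 0.58 (95% interval -0.76 to 1.93) did not pass, turned to -0.34 without SKOV3 control 1, and reached 1.51 with an adjusted p of 0.0136 from limma without SKOV3 control 2.

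Silencing of SFPQ was then compared with control in each line. In MDAH cells 0 of 9 genes passed the threshold, beside 2.03% of all genes, and 2 genes had an unadjusted p under 0.05, beside 23.1%. In SKOV3 cells it was 0 of 9, beside 0.997%, and 3 of 9 unadjusted, beside 19.5%. In the average of both lines it was 0 of 9, beside 5.66%, and 3 of 9 unadjusted, beside 26.4%. The study's methods name a t-test for differences between means, and for the arrays only a supervised analysis. Within each line a plain t-test gave an unadjusted p under 0.05 for 2 of the 9 genes in MDAH cells, beside 12.6% of all genes. In SKOV3 cells it did so for 1, beside 11.3%, and no gene of the array passed it after adjustment. At these numbers of genes the unadjusted counts do not set the family apart. The averages of all 9 genes, each from its brightest probe, were above 0, with a median of 0.33. The other probe of NFKBIB averaged -0.18. Over all genes tested 55.1% had an average above 0, and their median was 0.04. In MDAH cells the median of the 9 was 0.38 beside 0.10 over all genes, and in SKOV3 cells 0.44 beside -0.04. The averages stayed above 0 under each alternative run, and each single gene missed the threshold in the test as reported.

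**Figure D2:**
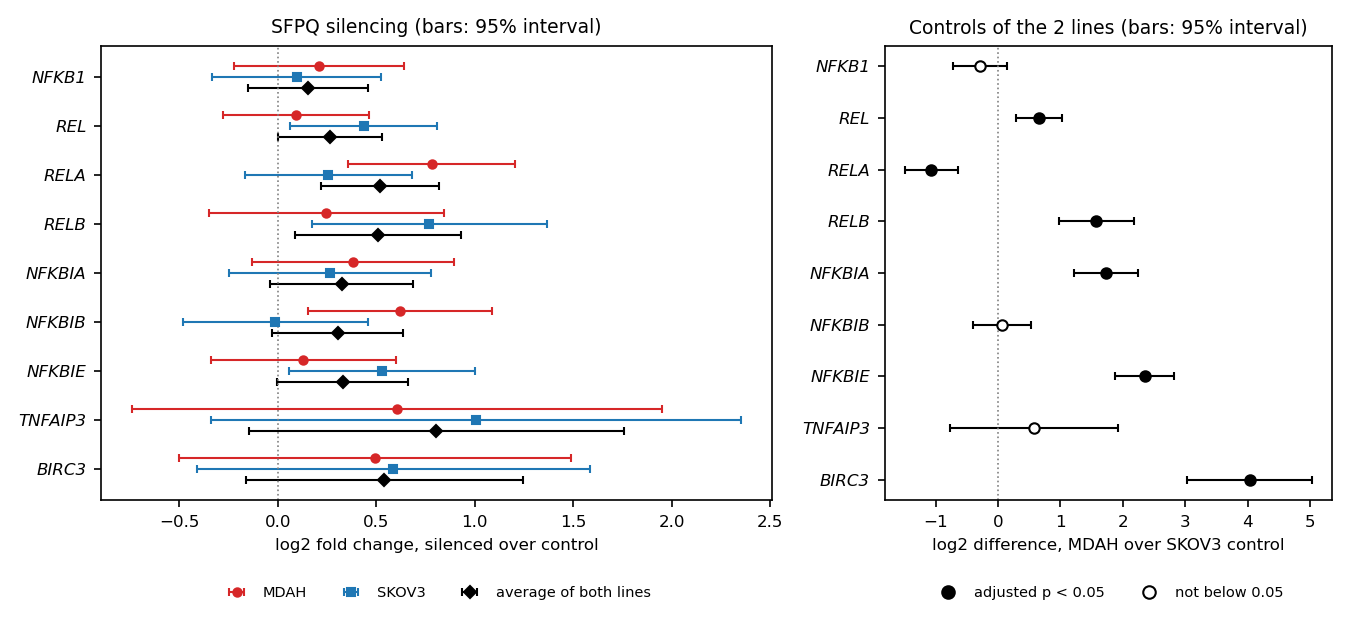
Left, log2 fold change of silenced over control cells for each of the 9 genes in MDAH cells, SKOV3 cells and their average; right, log2 difference of MDAH over SKOV3 controls, with filled points where the adjusted p was under 0.05; bars are 95% intervals from limma. None of the silencing values passed the threshold, and 6 of the 9 line differences did, from -1.07 for RELA to 4.03 for BIRC3.

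RELA came nearest to the threshold. It was higher in silenced cells by 0.78 (SE 0.18, adjusted p = 0.0822 from limma) in MDAH and by 0.26 (SE 0.18, adjusted p = 0.457) in SKOV3, with 0.52 (95% interval 0.22 to 0.82, adjusted p = 0.0622) on average. In both lines the 2 silenced arrays lay above the 2 controls. The second RELA probe gave 0.68 in MDAH cells and 0.48 on average. The MDAH value passed under the correction of background by normexp (0.67, adjusted p = 0.0469) and with a trend of the variance on signal (adjusted p = 0.0494), and ranged from 0.66 to 0.90 as each array was left out, with no pass.

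RELB had an average of 0.51 (95% interval 0.09 to 0.93, adjusted p = 0.131 from limma), with 0.77 in SKOV3 and 0.25 in MDAH cells. REL had an average of 0.26 and SKOV3 values of 0.88 and 0.89 above controls of 0.44 and 0.46, and in MDAH cells its groups overlapped. NFKB1 had the smallest average of the family, 0.15 (95% interval -0.15 to 0.46). Of the inhibitors NFKBIA averaged 0.33, NFKBIE 0.33 and NFKBIB 0.30. For NFKBIB this came from MDAH cells, where the used probe gave 0.62 and the other -0.10. That other probe, of the coding transcript, gave -0.27 in SKOV3 cells and -0.18 on average. The mean of both probes gave an average of 0.06 over the lines. The feedback genes had the widest intervals: TNFAIP3 averaged 0.81 (95% interval -0.15 to 1.76) and BIRC3 0.54 (-0.16 to 1.24). The arrays of silenced and control cells were separate for 7 of 9 genes in MDAH cells, compared with 57.0% of all genes, and for 4 of 9 in SKOV3 cells, compared with 58.0%.

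Whether the change with silencing differed between the 2 lines was tested as an interaction. Of the 9 genes 0 passed, beside 0.0965% of all genes, and 0 had an unadjusted p under 0.05, beside 14.9%. The lowest adjusted p of 0.344 belonged to NFKBIB (MDAH value minus SKOV3 value 0.63, 95% interval -0.03 to 1.30). For RELA the difference was 0.52 (-0.07 to 1.12) and for RELB -0.52 (-1.37 to 0.32).

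The controls of a line differed from each other in this gene family. Control 2 was above control 1 for 8 of 9 genes in MDAH cells, with a median difference of 0.27, and for 9 of 9 in SKOV3 cells, with a median of 0.33. Over all genes tested the medians were 0.04 and 0.02, and control 2 was above control 1 for 56.3% and 54.5% of them. The gap was widest in SKOV3 cells for TNFAIP3 at 1.85, BIRC3 at 1.17 and RELB at 0.71, and narrowest for REL at 0.02. The 43 measured genes of the target list had a median gap of 0.24 in MDAH cells, positive in 33 of them, and of 0.52 in SKOV3 cells, positive in 37.

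**Figure D3:**
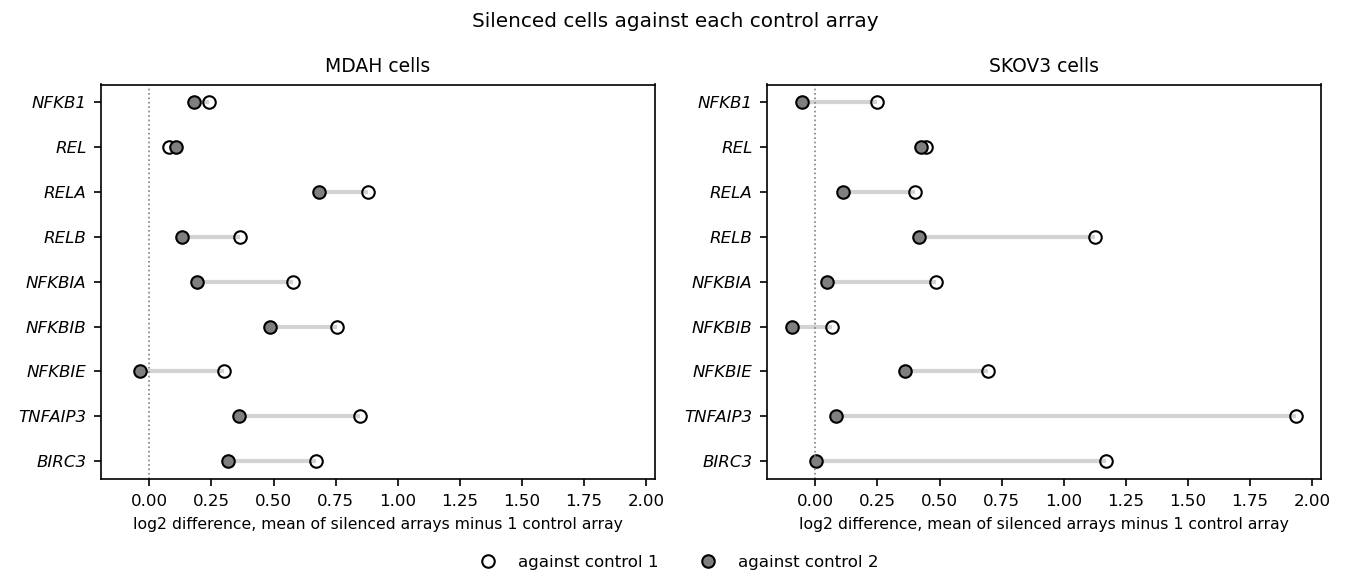
Mean of the 2 silenced arrays minus 1 control array, in log2 units, for each of the 9 genes in MDAH and SKOV3 cells; open circles use control 1, filled circles control 2, and grey bars join them. In SKOV3 cells the TNFAIP3 value goes from 1.93 to 0.08 and the BIRC3 value from 1.17 to 0.00, while REL stays at 0.45 and 0.42.

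Set against control 1 alone, silenced MDAH cells had a median difference of 0.58 over the 9 genes and silenced SKOV3 cells 0.49. Set against control 2 alone the medians were 0.19 and 0.08. Both sets share the silenced arrays and differ in the control. RELA in MDAH cells was 0.88 above control 1 and 0.68 above control 2, and in SKOV3 cells RELB was 1.12 and 0.42 above them, REL 0.45 and 0.42 and NFKBIE 0.70 and 0.36. BIRC3 and TNFAIP3 in SKOV3 cells were level with control 2, with differences of 0.00 and 0.08. The part that the identity of the control plays in these values was not tested.

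By correlation over the 8 arrays, after each line's control mean was subtracted, RELA ran closest to TIMM44 (Pearson r 0.997), POLR3A (0.994) and FAM50A (0.989). RELB ran closest to NSUN5 (0.987), OAS1 (0.985) and IFI35 (0.980), of which OAS1 and IFI35 are interferon-inducible. These were picked as the highest of all genes over arrays that share their controls, so they are given as a description.

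Outside the family, receptors, kinases and other inhibitors passed between the lines about as often as all genes did, of which 26.8% were higher and 30.7% lower in MDAH controls. Of 27 receptors and adaptors tested 10 were higher and 7 lower, with a median of 0.11. The Toll-like receptor TLR3, which senses double-stranded RNA, was higher by 3.07 (adjusted p = 0.000129 from limma), the costimulatory receptor CD40 by 4.43 and the interleukin-1 receptor IL1R1 by 1.63. With normexp and quantile normalization these differences passed as well, but that of TLR3 was 1.90 and that of IL1R1 0.74. TLR4, the endotoxin receptor, was not well above background in SKOV3 controls and was at least 1.70-fold higher in MDAH controls, and its fitted difference of 2.77 was 0.85 under normexp. Of 14 kinase genes 2 were higher and 6 lower, with a median of -0.35. CHUK, which encodes IKKα, was higher by 2.70 (adjusted p = 6.31e-05 from limma), with 3.08 and 3.11 in MDAH controls and 0.37 and 0.42 in SKOV3 controls. MAP3K14, which encodes the NIK kinase above IKKα, had a log2 difference of -1.42 (adjusted p = 0.000958 from limma), and MAP3K3 (-2.05) and TAB3 (adjusted p = 0.00281) were lower too. IKBKB, which encodes IKKβ, had a difference of -0.67 (adjusted p = 0.00953 from limma) and IKBKG, the scaffold NEMO, one of -0.96 (adjusted p = 0.00736). Both calls were lost without MDAH control 1 (adjusted p = 0.0629 and 0.0535) or SKOV3 control 2 (0.0701 and 0.0509).

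Among 11 other inhibitors 4 were higher and 3 lower in MDAH controls, with a median of -0.11. TNIP1, an A20-binding protein, was higher by 1.70, the nuclear IκB proteins NFKBID by 2.20 (1.59 under normexp) and BCL3 by 0.72, whereas PDLIM2, which targets nuclear p65 for degradation, was lower by 1.81 and the linear-ubiquitin hydrolase OTULIN by 1.50 on the log2 scale. The BCL3 call was lost without MDAH control 2 (adjusted p = 0.0879 from limma) or SKOV3 control 1 (0.0811). NFKBIZ with -0.65 and CYLD with -0.32 did not pass. After silencing 1 of these 11 passed in MDAH cells, beside 2.03% of all genes, and 0 in SKOV3 cells, beside 0.997%. On average 1 rose and 1 fell, beside 5.66%. At this number of genes the counts do not set the list apart. TNIP2, another A20-binding protein, rose on silencing in MDAH cells by 0.87 (adjusted p = 0.0494 from limma), from 0.52 and 0.68 to 1.50 and 1.43, and on average by 0.55 (adjusted p = 0.0422). COMMD1, which promotes the degradation of p65, fell by 2.21 on average (adjusted p = 0.0423 from limma), from 3.36 and 3.37 to 1.77 and 0.34 in MDAH cells and from 3.29 and 3.47 to 2.15 and 0.39 in SKOV3 cells. In both lines the COMMD1 level was lower with sh-SFPQ#3 than with sh-SFPQ#2. As each array was left out, the TNIP2 values kept their direction and missed the threshold every time (adjusted p 0.0615 to 0.335 in MDAH cells and 0.0516 to 0.167 on average), and that of COMMD1 passed in 2 of 8 such fits, without MDAH sh-SFPQ#2 (0.0237) and without SKOV3 sh-SFPQ#2 (0.0184). With all arrays kept, the TNIP2 rise in MDAH cells missed the threshold in 7 of 11 alternatives (adjusted p 0.0509 to 0.362), among them the deposited values and quantile normalization. The averages of TNIP2 and COMMD1 each missed it in 2 of 9, with median centring (0.0553 and 0.0525) and with no filter on dim probes (0.0744 and 0.0728).

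**Figure D4:**
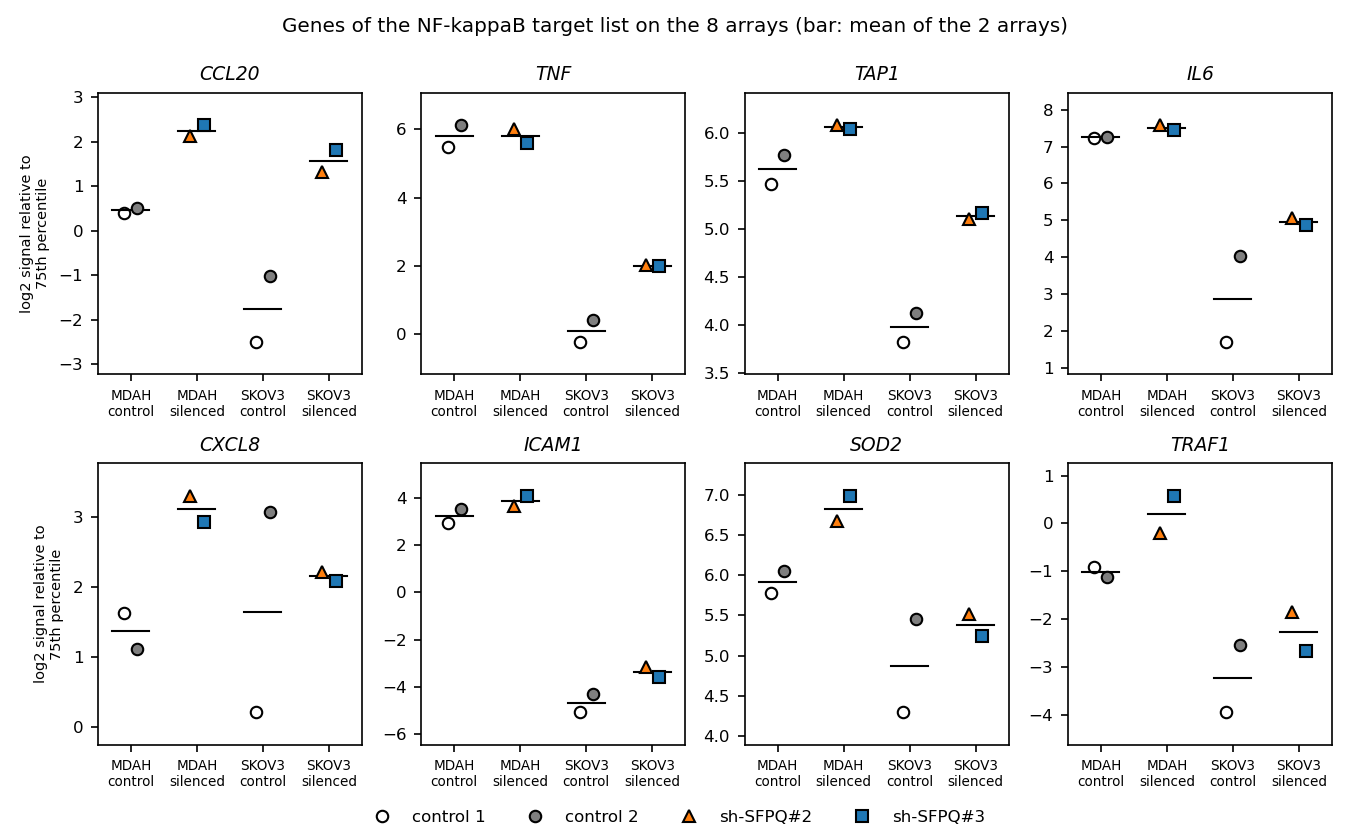
Log2 signal relative to the array's 75th percentile of 8 genes of the NF-κB target list in the 4 groups; each point is 1 array, marked by control number or shRNA, and the bar is the mean of 2 arrays. CCL20 lies above both controls on all silenced arrays, and ICAM1, TNF, IL6, SOD2, TRAF1 and TAP1 are higher on every MDAH array than on any SKOV3 array. Of all genes tested 85.2% had no overlap between the controls of the lines, silenced arrays aside. The share over all arrays of each line was not computed.

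Known NF-κB targets were mostly higher in MDAH controls. Of 46 listed genes 43 were tested, and 24 were higher and 6 lower in MDAH controls, with a median of 1.53, while 26.8% of all genes were higher and 30.7% lower, with a median of -0.05. ICAM1, the leukocyte adhesion molecule, was 2.93 and 3.54 in MDAH controls, was not well above background in SKOV3 controls, and was at least 149-fold higher in MDAH cells (adjusted p = 7.29e-06 from limma). Its fitted log2 difference was 7.94, and 5.51 under normexp. TNF, the cytokine that both activates the pathway and is made by it, was 5.48 and 6.12 against -0.23 and 0.40, a difference of 5.72 on the log2 scale. IL6 was higher by 4.38, CCL20 by 2.22 (1.61 under normexp), TRAF1 by 2.23, the stress kinase NUAK2 by 2.86 and CFLAR, an inhibitor of caspase-8, by 3.21, though CFLAR gave 1.43 when its probes were averaged and TRAF1 1.20 under normexp. The TRAF1 call was lost without MDAH control 1 (adjusted p = 0.0556 from limma). The mitochondrial dismutase SOD2 was higher by 1.04 (adjusted p = 0.0466 from limma), which held in 1 of 8 fits without 1 array, that without SKOV3 control 2 (0.00445). CXCL8 overlapped between lines, at 1.63 and 1.12 against 0.21 and 3.07. Other targets ran the opposite way. IL1A and IL1B, named after their values were seen, were not well above background in MDAH controls and at least 61.6-fold and 96.3-fold higher in SKOV3 controls.

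After silencing 3 of 43 targets passed the threshold in SKOV3 cells, all of them higher, beside 0.997% of all genes in either direction. In MDAH cells 0 of 43 passed, beside 2.03%. On average 2 of 43 rose and 1 fell past the threshold, beside 5.66% of all genes in either direction. That count does not set the targets apart. Of the 15552 genes tested, 66 rose in SKOV3 cells and 65 in MDAH cells. The chemokine CCL20 went from -2.50 and -1.03 to 1.31 and 1.82 in SKOV3 cells, a rise of 3.33 (SE 0.45, adjusted p = 0.0380 from limma), and from 0.40 and 0.51 to 2.13 and 2.36 in MDAH cells (1.79, adjusted p = 0.0961). Its average rise of 2.56 passed (adjusted p = 0.0135), and missed the threshold without MDAH control 1 (0.0948) or MDAH control 2 (0.0757). The SKOV3 rise of CCL20 passed in 2 of 8 fits without 1 array, those without SKOV3 control 2 (0.0225) and without SKOV3 sh-SFPQ#2 (0.0359). TNF rose by 1.92 in SKOV3 cells (adjusted p = 0.0472 from limma), to 2.01 and 1.99, and its MDAH values of 6.01 and 5.60 lay among the controls. TAP1, the peptide transporter for antigen presentation, rose by 1.16 in SKOV3 cells (adjusted p = 0.0448) and by 0.80 on average (adjusted p = 0.0234). In the fits without 1 array the SKOV3 values missed the threshold each time, from 0.0550 to 0.167 for TNF and from 0.0523 to 0.178 for TAP1, and the TAP1 average passed in 2 of 8. With all arrays kept, the SKOV3 rise of TNF missed the threshold in 5 of 11 alternatives (adjusted p 0.0502 to 0.430). That of TAP1 missed it in 4 of 11 (0.0646 to 0.429) and that of CCL20 in 3 of 11 (0.0699 to 0.441). Each was lost with no filter on dim probes, with the line fitted alone and in the plain t-test. The CCL20 rise was 2.56 under normexp, where it passed.

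BCL2A1, an anti-apoptotic member of the BCL2 family, fell by 0.56 on average (adjusted p = 0.0497 from limma), and its probes disagreed, with 0.02 when they were averaged. It missed the threshold in all 8 fits without 1 array (adjusted p 0.0628 to 0.176) and, with all arrays kept, under quantile normalization (0.0510), median centring (0.0516), the deposited values (0.0514) and no filter on dim probes (0.0838). The averages of ICAM1 (0.996, adjusted p = 0.0624), IL6 (1.18, 0.165), CXCL8 (1.12, 0.263), SOD2 (0.71, 0.146) and TRAF1 (1.09, 0.120) did not pass. IL6 in SKOV3 cells was 1.71 and 4.02 in the controls and 5.06 and 4.87 after silencing, so that the controls differed from each other by more than control 2 did from the silenced arrays. The 43 targets had a median of 0.49 for average silencing, beside 0.04 over all genes. Against control 1 alone their median was 0.59 in MDAH and 0.85 in SKOV3 cells, and against control 2 alone 0.29 and 0.09. Of the other lists 0 of 27 receptors and adaptors and 0 of 14 kinases passed in any silencing comparison. Over all genes it was 2.03% in MDAH cells, 0.997% in SKOV3 cells and 5.66% on average. At these numbers of genes the counts of 0 do not set the lists apart. For a difference of silencing between the lines 0 genes of any pathway list passed, beside 0.0965% of all genes.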

How the data were processed

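Cy3-labelled RNA of 8 samples was measured on single-colour Agilent arrays. Per the file headers the authors scanned them with Agilent Feature Extraction 11.5.1.1 (10.7.3.1 in the submitters' processing notes) and deposited background-subtracted intensity per spot, not normalized between arrays. The authors also deposited log2 values, which the scanner data show to be quantile-normalized and median-centred per probe (r at least 0.9999). Control and outlier spots (209 to 310 per array) were left out, spots of a probe averaged, the 75th percentile subtracted, and 28174 of 50599 probes named through RefSeq accessions. The brightest probe stood for a gene, and a gene was tested where both arrays of at least 1 group were well above background. In R 4.3.3, limma 3.58.1 was fitted to all 4 groups with Benjamini-Hochberg adjustment. It was also run on simulated data in which 200 genes changed alike in both lines. With a change of 0.5 on the log2 scale 0% of them were called, in either line or on average. With a change of 1 it was 0% in either line and 67.5% on average. With a change of 2 it was 90% in MDAH cells, 92% in SKOV3 cells and 97.5% on average. The adjusted p depends on how many genes change, and in the data 880 genes were called on average. The simulated shares therefore need not hold for the data. The arrays' number limits the precision.

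The 10 genes, the pathway lists and the tests were chosen with earlier results of these data known. Named were all 10 genes, SFPQ, up to 4 genes of lowest p per pathway list and comparison among those that passed, 14 further pathway genes whatever their values, and the 3 genes most correlated with each of RELA and RELB. Alternatives were other scalings (quantile, median, the deposited log2 values, normexp with offset 50 on median pixel intensity, as deposited), detection filters, probe averaging, fits per line, a variance trend, the plain t-test, a replicate block and leaving out each array. No array coordinates are given, since the promoter table uses another genome build than the arrays. A fold against a group not well above background is a lower bound, computed with the lowest signal well above background on each array.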

Additional observations from a re-analysis of the deposited data

How the results depend on the processing

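The 6 line differences kept their direction under every alternative, and all but that of REL (0.50, adjusted p = 0.0663 from limma with median centring) kept the threshold outside the fits without 1 array; 5 to 6 of the 9 genes passed when 1 array was left out. For silencing, RELA was the 1 gene of the 9 that passed anywhere: in MDAH cells and on average under normexp and under a variance trend (1 gene each), and on average when every group had to be well above background (1 gene, adjusted p = 0.0441). The counts over all genes moved more. Normexp gave 622, 322 and 1434 genes in MDAH cells, SKOV3 cells and on average, in place of 316, 155 and 880. The variance trend gave 273 in SKOV3 cells and 1382 on average, no detection filter 39 and 370, the filter on every group 114 in MDAH cells, and each line alone 143 and 0. The plain t-test gave 0 and 0 after adjustment and 1961 and 1758 unadjusted. The interaction, with 15 genes, gave 29 under quantile normalization, 23 under median centring, 28 with the deposited values, and 0 under normexp, the filter on every group, the trend and the block. Leaving out 1 array gave 9 to 1091 genes in MDAH cells, 13 to 595 in SKOV3 cells, 32 to 1686 on average and 0 to 182 for the interaction. Median centring lowered the share of calls that were decreases in MDAH cells from 79.4% to 62.7%, and on average from 64.3% to 47.5%, and moved the median of all genes in MDAH silencing from 0.10 to 0.21. The SFPQ call was lost in MDAH cells in 4 of 11 alternatives with all arrays kept. These were median centring (adjusted p = 0.0610 from limma), no filter (0.0510), the line alone (0.0628) and the plain t-test (0.386). In SKOV3 cells it was lost in 3 of 11, with no filter (0.0599), the line alone (0.157) and the t-test (0.429).

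Directions turned for values that had not passed, and for BCL2A1. They did so under quantile normalization, the deposited values and normexp, NFKBIE in MDAH silencing (-0.010, -0.00977, -0.00766), NFKBIB in SKOV3 silencing (0.0061, 0.0071, 0.022), and the interactions of NFKB1 (-0.10, -0.10, -0.093) and NFKBIA (-0.27, -0.28, -0.28). Median centring turned the interaction of BIRC3 (0.052) and the line difference of NFKBIB (-0.084), and averaging probes turned the silencing average of BCL2A1 (0.015). Without 1 array, the ranges that crossed 0 were -0.040 to 0.30 for NFKBIE, -0.063 to 0.25 for REL in MDAH silencing, -0.070 to 0.26 for NFKB1 and -0.14 to 0.12 for NFKBIB in SKOV3 silencing, -0.065 to 0.20 for NFKBIB and -0.34 to 1.51 for TNFAIP3 between lines, and, for the interaction, -0.68 to 0.49 for BIRC3, -0.053 to 0.28 for NFKB1, -0.10 to 0.34 for NFKBIA and -1.33 to 0.52 for TNFAIP3. The lone sample of a group was then assumed to vary like the others. The cause of these changes was not tested. Controls of the 2 lines share only a number (correlation of their deviations 0.08), and silenced arrays of the same number share the shRNA (0.36). With the replicate number as a block, 862, 688 and 1770 genes passed for silencing, and of the 9 genes 0 did so, with 6 between lines.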
